A study of Homo sapiens with 18 samples.

Results

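The genes described here are 39 named genes of epithelial identity and of the epithelial-mesenchymal transition, taken by symbol from the 62710 genes of the table. All 39 symbols were found. By role, 29 are epithelial genes (cadherins, tight junction and desmosome proteins, polarity and trafficking proteins, the matriptase system and epithelial regulators) and 10 are mesenchymal genes (CDH2, CDH11, VIM, ZEB1, ZEB2, SNAI1, SNAI2, TWIST1, TWIST2 and PRRX1). They were followed in 18 RNA-seq libraries of MDA-MB-231 (a human breast carcinoma line, triple-negative and mesenchymal in phenotype) grown as spheroids of 2000 cells. The 6 groups of 3 libraries were labelled Wildtype (control spheroids) or MMP14-KO (targeted spheroids), and each was sampled in hanging droplets after 5 days, or after 24 h or 48 h embedded in a collagen hydrogel. MMP14 encodes a collagen-cleaving protease held at the cell surface. Clonality of the targeted line and the origin of the replicates (separate cultures or not) are not stated in the labels, so the tests measure the spread between these samples, which may be technical. Spheroids in collagen were digested out of the gel with collagenase (2 mg/ml, 37 °C) before lysis and those in droplets were not, so embedding, digestion and the longer culture cannot be told apart in comparisons of collagen with droplets.

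In the textbook account, epithelial cells hold their neighbours through E-cadherin (CDH1), tight junctions and desmosomes, and keep this state through factors such as GRHL2, OVOL1, ELF3 and the splicing regulators ESRP1 and ESRP2. During the epithelial-mesenchymal transition the repressors ZEB1, ZEB2, SNAI1, SNAI2 and TWIST1 bind E-box motifs in epithelial promoters, and cells gain vimentin (VIM) and N-cadherin (CDH2). MDA-MB-231 is widely used as a line in which that transition is far advanced.

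Total counts per library ranged from 19819401 to 33352163. MMP14 stood between 1284.0 and 2249.7 CPM (counts scaled to library size) in the 9 control libraries and between 137.9 and 165.6 CPM in the 9 targeted libraries. Among defining markers, ESR1 reached at most 0.308 CPM and PGR 0.209 CPM, ERBB2 ranged from 65.2 to 78.7 CPM, and the T-cell gene CD3E had no read. Genes of the mitochondrial genome took 2.1 to 2.65% of counts in control droplets, 0.971 to 1.74% in targeted droplets, 2.34 to 2.94% in the 6 libraries at 24 h and 2.88 to 4.18% in the 6 at 48 h. These shares moved with the genotype in droplets, and their part in the droplet differences below was not tested.

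The member levels gave a mixed picture with the mesenchymal genes at both ends. On the scale of CPM per kilobase of annotated exon, as the median of the 18 libraries, VIM was highest of the 39 at 639.6, followed by SPINT2 at 84.1, CLDN7 at 28.9, JUP at 22.5, CDH11 at 20, DSP at 17.6, CLDN4 at 15 and ZEB1 at 14.2. Thus several junction genes stood at or above ZEB1 on this scale. CDH1 was 32nd of 39 at 0.0661 CPM per kilobase and CDH2 31st at 0.0774, so both were near the bottom. Of the other cadherins, CDH3 was 29th at 0.119 CPM per kilobase and CDH11 was 5th. With the longest transcript as the length, the 10 highest members were the same 10, but ZEB1 was 6th, above DSP (7th) and CLDN4 (8th). The genes TWIST1 and TWIST2 had no read in any library, which allows at most 3 counts, or 0.0921 to 0.149 CPM depending on the library. Another 6 members had reads but too few for a test: ESRP1 (40 reads in all 18 libraries), GRHL2 (16), OVOL1 (4), RAB25 (9), CRB3 (93) and MARVELD3 (7), and none of them passed 0.539 CPM in any library. That left 31 tested members, 23 epithelial and 8 mesenchymal, shown in the heat map of every library.

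**Figure D1:**
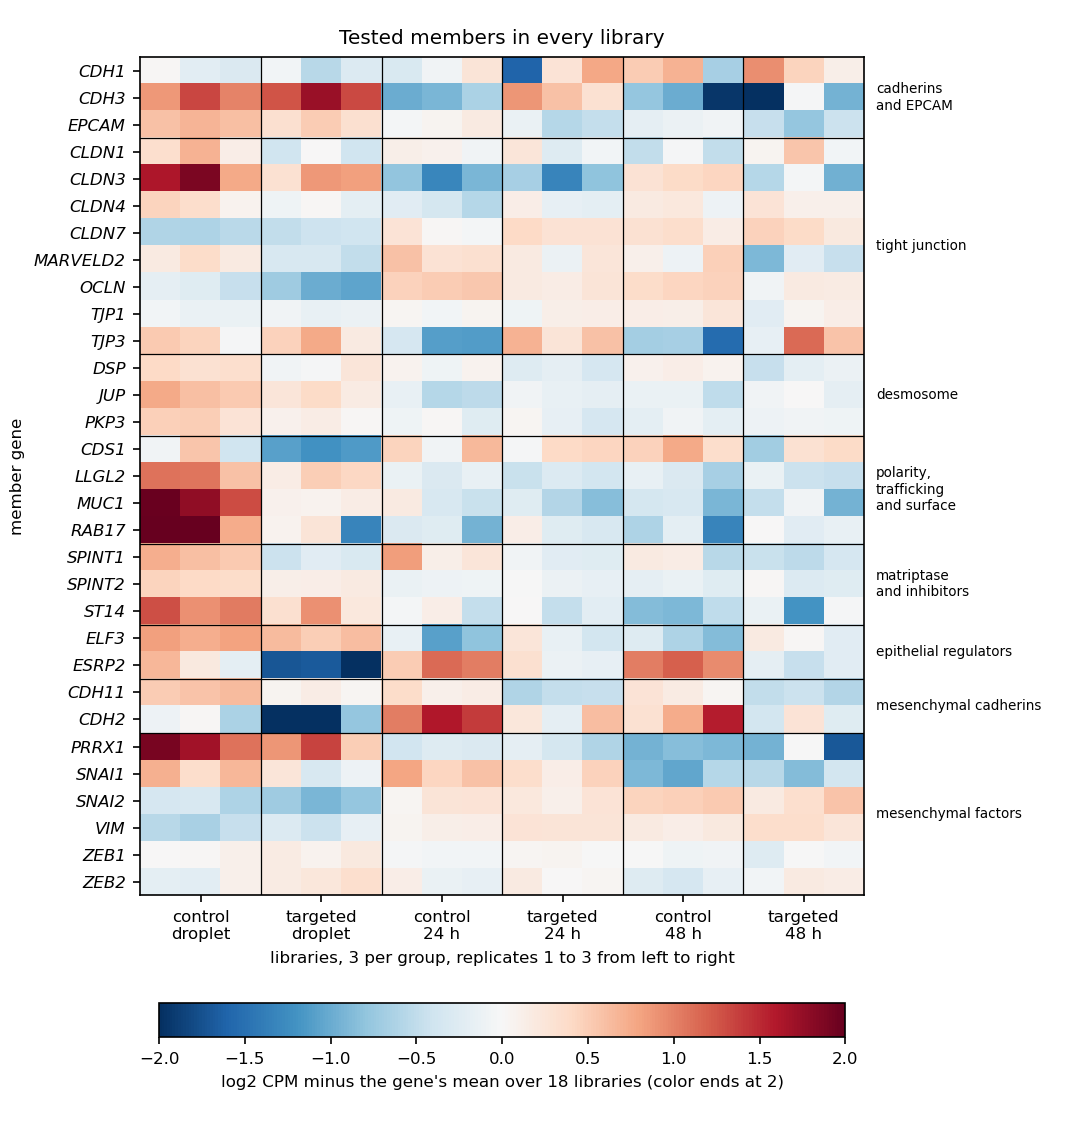
Heat map of the 31 tested members (rows, grouped by role) in the 18 libraries (columns, 3 per group); color is log2 CPM minus the gene's mean over the 18 libraries, and colors end at 2 and -2. MUC1 and RAB17 are darkest red in control droplets, ESRP2 is darkest blue in targeted droplets, and CLDN7, VIM and SNAI2 are blue in droplets and red in collagen.

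In droplets, the epithelial members that differed between the genotypes were all lower in targeted spheroids. Differences here are log2 fold changes from edgeR's quasi-likelihood fit to all 18 libraries, with an SE derived from the log2 fold change and the test statistic. A member passed where its p, adjusted by Benjamini-Hochberg over the 17030 genes tested, was under 0.05. Of the 31 tested members 17 were lower and 2 higher in targeted droplets, against 9.7% lower and 7.7% higher among all genes tested. The 17 were 14 epithelial genes and the mesenchymal genes CDH11, SNAI1 and SNAI2, and the 2 higher were VIM and ZEB2. The median log2 fold change was -0.384 over the tested members and -0.00125 over all genes tested. Since a member could pass the expression filter through the group where it is high, these counts describe the members that were measured. The members and the gene lists were also chosen with earlier results of these data known. Their counts beside the shares of all genes, here and below, are therefore descriptive and no independent evidence of an excess. In bulk RNA, fewer cells that express a gene and less of its RNA per cell cannot be told apart.

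In collagen, the genotype differences of the members had no common direction. At 24 h, 4 members were higher (CDH3, CLDN7, TJP3 and ELF3) and 7 lower, where 13.7% of all genes were higher and 15.7% lower. At 48 h, 4 were higher (CLDN1, TJP3, ELF3 and ZEB2) and 6 lower, where 14.4% of all genes were higher and 15.1% lower. The counts of higher members were near the background, and those of lower members were above it by a few genes. The median over the members was -0.057 at 24 h and 0.045 at 48 h, beside 0.0049 and 0.000839 over all genes. With libraries scaled by size alone, the share of higher genes among all calls was 61.9% at 24 h (46.5% with TMM) and 64.3% at 48 h (48.9% with TMM), while the members split 6 higher to 5 lower at 24 h and 5 to 6 at 48 h. CDH11, OCLN, ESRP2 and DSP were the members that were lower in targeted spheroids in all 3 conditions, as the plot of genotype differences shows. The share of all genes that were lower in all 3 conditions was not computed.

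**Figure D2:**
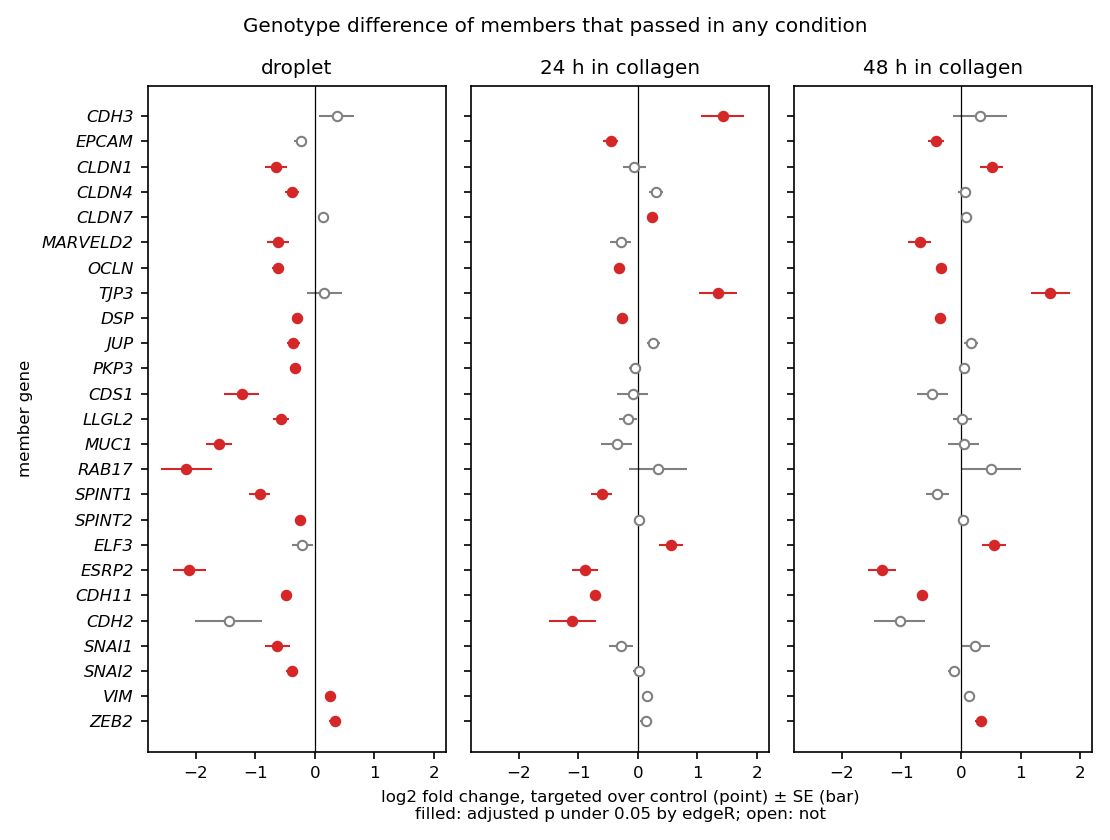
Log2 fold change of targeted over control (x axis) for the 25 members (y axis) that passed in at least 1 condition, in droplets, at 24 h and at 48 h; bars are SE and filled points passed. In droplets 17 of the 19 filled points lie left of 0, and CDH11, OCLN, ESRP2 and DSP are filled and left of 0 in all 3 panels.

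Among the cadherins, the genotype difference passed in all 3 conditions for the mesenchymal CDH11 and in none for CDH1. CDH11 (ENSG00000140937, chr16:64943753-65126112 on the minus strand of GRCh38) encodes cadherin-11, a type II cadherin of mesenchymal cells. Its level was 360.2, 374.5 and 391.7 CPM in control droplets and 262.6, 281.5 and 260.4 CPM in targeted droplets. In collagen it was 325.4, 271.8 and 280.2 CPM in control at 24 h, 165.8, 182.2 and 183.0 CPM in targeted at 24 h, 304.0, 283.8 and 259.7 CPM in control at 48 h and 179.9, 187.4 and 169.0 CPM in targeted at 48 h. The targeted libraries were below every control library within each condition. The log2 fold change was -0.49 ± 0.0677 in droplets (adjusted p = 2.16e-05), -0.72 ± 0.0684 at 24 h (1.15e-07) and -0.66 ± 0.0685 at 48 h (4.49e-07), and each call was kept whichever library was left out.

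CDH1 (ENSG00000039068, chr16:68737225-68835548, plus strand), the adherens junction cadherin of epithelia, was barely detected, with 3 to 20 reads per library. Its values were 0.421, 0.357 and 0.339 CPM in control droplets, 0.396, 0.28 and 0.341 CPM in targeted droplets, 0.334, 0.391 and 0.491 CPM in control at 24 h, 0.136, 0.5 and 0.702 CPM in targeted at 24 h, 0.587, 0.668 and 0.259 CPM in control at 48 h and 0.781, 0.564 and 0.446 CPM in targeted at 48 h. The genotypes overlapped in each condition and no comparison of CDH1 passed. The 95% interval of its log2 genotype difference ran from -1.15 to 0.89 in droplets, -0.83 to 1.11 at 24 h and -0.69 to 1.19 at 48 h. The data thus allow a difference anywhere within those bounds.

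CDH2, the N-cadherin of mesenchymal and neural cells, was also close to the detection limit, with 1 to 30 reads per library. It stood at 0.327, 0.357 and 0.226 CPM in control droplets and at 0.0793, 0.035 and 0.205 CPM in targeted droplets. In collagen the values were 0.709, 1.06 and 0.921 CPM in control and 0.409, 0.308 and 0.537 CPM in targeted spheroids at 24 h, then 0.431, 0.585 and 1.04 CPM in control and 0.273, 0.423 and 0.297 CPM in targeted spheroids at 48 h. Targeted libraries were below all control libraries in each condition, and the difference passed at 24 h (-1.10 ± 0.397, adjusted p = 0.041). The droplet difference (adjusted p = 0.079) passed without targeted droplet replicate 3 (-2.34, adjusted p = 0.0266) and without both droplet replicates 3 (-2.52, adjusted p = 0.0233). The 48 h difference (adjusted p = 0.0771) passed without control 48 h replicate 1 (-1.29, adjusted p = 0.0395). The 24 h call was lost when control replicate 2 or 3 or targeted replicate 1 or 2 was left out (adjusted p from 0.096 to 0.157) and with DESeq2 (0.0747).

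The 2 other epithelial surface genes of this class went in opposite directions in collagen. CDH3 encodes P-cadherin, and its levels were 1.22, 1.68 and 1.32 CPM in control and 1.59, 2.21 and 1.67 CPM in targeted droplets. At 24 h it was 0.334, 0.352 and 0.43 CPM in control and 1.23, 1.00 and 0.826 CPM in targeted spheroids, and at 48 h 0.391, 0.334 and 0.173 CPM and 0.156, 0.657 and 0.347 CPM. The groups were apart at 24 h only, where CDH3 was higher in targeted spheroids by 1.42 ± 0.363 (adjusted p = 0.00508).

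EPCAM encodes an epithelial adhesion molecule much used as a carcinoma marker. It was 9.72, 10.4 and 9.90 CPM in control droplets and 8.09, 9.21 and 8.13 CPM in targeted droplets. The levels were 6.30, 6.76 and 7.37 CPM in control and 5.91, 4.35 and 4.67 CPM in targeted spheroids at 24 h, and 5.75, 5.97 and 6.17 CPM and 4.73, 3.80 and 4.81 CPM at 48 h. Control exceeded targeted in every condition without overlap, and the difference passed at 24 h (-0.46 ± 0.123, adjusted p = 0.00692) and 48 h (-0.42 ± 0.128, adjusted p = 0.0166) but not in droplets (-0.24 ± 0.113, adjusted p = 0.157). The 24 h call was lost without targeted replicate 2 (adjusted p = 0.0531) and the 48 h call without control replicate 3 or targeted replicate 2 (0.0556 and 0.085).

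Of the 8 tested tight junction members, which seal the space between epithelial cells, 4 were lower in targeted droplets and none was higher. OCLN (ENSG00000197822, chr5:69492292-69558104, plus strand) encodes occludin, a membrane protein of the tight junction strands. It measured 12.9, 12.3 and 10.6 CPM in control droplets and 8.92, 7.35 and 7.07 CPM in targeted droplets. After 24 h it was 20.1, 20.8 and 21.2 CPM in control and 16.6, 16.2 and 17.5 CPM in targeted spheroids, and after 48 h 18.8, 19.8 and 20.2 CPM and 14, 16.6 and 16.4 CPM. Targeted libraries were the lower 3 in each condition, by -0.62 ± 0.0986 in droplets (adjusted p = 9.77e-05), -0.31 ± 0.0888 at 24 h (0.012) and -0.33 ± 0.0908 at 48 h (0.00922). The 24 h call was lost without control replicate 3 or targeted replicate 2 (0.0503 and 0.0529) and the 48 h call without targeted replicate 1 (0.0612).

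MARVELD2 encodes tricellulin, which closes the corners where 3 cells meet. It was 3.32, 3.78 and 3.31 CPM in control and 2.34, 2.35 and 2.08 CPM in targeted droplets. In collagen the levels were 4.38, 3.56 and 3.65 CPM against 3.32, 2.69 and 3.47 CPM at 24 h, and 3.13, 2.71 and 4.06 CPM against 1.56, 2.49 and 2.13 CPM at 48 h. Like OCLN it was lower in targeted spheroids with no overlap in each condition, and it passed in droplets (-0.62 ± 0.185, adjusted p = 0.0214) and at 48 h (-0.69 ± 0.193, adjusted p = 0.01). Each call was lost on leaving out 2 of the 6 libraries in turn: control replicate 2 or targeted replicate 3 in droplets (0.0931 and 0.0852), control replicate 3 or targeted replicate 1 at 48 h (0.0785 and 0.068).

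The claudins, the 4-span proteins that set what a tight junction lets pass, did not move together. CLDN1 was 5.37, 6.82 and 4.63 CPM in control and 3.21, 4.24 and 3.21 CPM in targeted droplets, then 4.59, 4.5 and 4.05 CPM against 5.00, 3.54 and 4.09 CPM at 24 h and 3.01, 4.18 and 3.02 CPM against 4.41, 6.20 and 4.06 CPM at 48 h. It was lower in targeted droplets (-0.66 ± 0.186, adjusted p = 0.0158), did not pass at 24 h (95% interval -0.47 to 0.35), and was higher in targeted spheroids at 48 h (0.52 ± 0.193, adjusted p = 0.0457), where the groups overlapped. Neither call was firm. The droplet call was lost without control replicate 2 or targeted replicate 1 or 3 (adjusted p from 0.0703 to 0.126), and the 48 h call without control replicate 1 or 3 or targeted replicate 2 (0.148 to 0.28) and with DESeq2 (0.0513).

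CLDN4 was 93.4, 87.0 and 71.9 CPM in control and 64.5, 69.4 and 59.8 CPM in targeted droplets. Its levels were 58.6, 53.8 and 46.3 CPM in control and 74.8, 61.2 and 60.1 CPM in targeted spheroids at 24 h, and 77.3, 79.5 and 63.5 CPM and 82.4, 73.3 and 73.7 CPM at 48 h. The order of the genotypes thus differed between droplets, where targeted libraries were the lower 3 (-0.38 ± 0.116, adjusted p = 0.0329), and 24 h, where they were the upper 3 (0.31 ± 0.118, adjusted p = 0.0627, not passed, but 0.0237 with DESeq2). The droplet call was lost without control replicate 1 or 2 or targeted replicate 1 or 3 (0.0843 to 0.135). CLDN7 was 42.2, 41.9 and 44.3 CPM in control and 45.3, 48.0 and 48.7 CPM in targeted droplets, 77.7, 65.0 and 62.0 CPM against 84.2, 77.9 and 77.9 CPM at 24 h and 79.0, 81.9 and 71.0 CPM against 87.8, 83.5 and 73.3 CPM at 48 h. It was higher in targeted spheroids at 24 h by 0.23 ± 0.0765 (adjusted p = 0.0265), a call lost without control replicate 2 or 3 or targeted replicate 1 (0.106 to 0.163).

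The scaffold protein gene TJP3 was higher in targeted spheroids in collagen, at low levels. TJP3 encodes ZO-3, and it was 1.82, 1.71 and 1.24 CPM in control and 1.74, 2.14 and 1.43 CPM in targeted droplets. It then stood at 1.00, 0.587 and 0.583 CPM in control and 2.05, 1.5 and 1.90 CPM in targeted spheroids at 24 h, and at 0.783, 0.793 and 0.432 CPM and 1.13, 2.77 and 1.88 CPM at 48 h. The groups were apart at both times, by 1.34 ± 0.321 (adjusted p = 0.00333) and 1.5 ± 0.329 (0.00164), and both calls were kept whichever library was left out. TJP1, which encodes ZO-1, ranged from 91.0 to 126.4 CPM over the 18 libraries and did not pass between genotypes in the fit to all libraries. Its 48 h difference (adjusted p = 0.0798) passed with no filter (-0.19, adjusted p = 0.0258) and without targeted 48 h replicate 3 (-0.25, adjusted p = 0.0222). CLDN3 ranged from 0.115 to 1.07 CPM and did not pass between genotypes in that fit either. Its droplet difference (adjusted p = 0.119) passed without control droplet replicate 3 (-1.07, adjusted p = 0.037).

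All 3 desmosome members were lower in targeted droplets, and DSP alone of them was lower in collagen as well. Desmosomes are the spot welds that tie the keratin filaments of neighbouring cells together. DSP (ENSG00000096696, chr6:7541575-7586717, plus strand) encodes desmoplakin, which links the plaque to keratin. It was 231.0, 217.5 and 221.1 CPM in control and 166.1, 171.6 and 206.4 CPM in targeted droplets, 184.1, 165.5 and 184.3 CPM against 147.2, 155.5 and 139.1 CPM at 24 h and 185.7, 192.4 and 184.5 CPM against 127.9, 152.4 and 161.2 CPM at 48 h. No targeted library reached a control library of the same condition, and the differences were -0.30 ± 0.0795 in droplets (adjusted p = 0.012), -0.27 ± 0.0801 at 24 h (0.014) and -0.35 ± 0.0804 at 48 h (0.00278). The droplet call was lost without control replicate 1 or targeted replicate 1 or 2 (0.0556 to 0.0728), the 24 h call without control or targeted replicate 3 (0.0632 and 0.0659) or with library size alone as the scaling (0.0505), and the 48 h call in no omission.

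Promoter sequence was examined for the members that were lower in all 3 conditions, since repressors of the ZEB and Snail families are known to bind the E-box. The motif searched was CAGGTG and its reverse complement CACCTG, in the 250 bases before each RefSeq start (GRCh38.p14). Of the members 23 of 39 had at least 1 window, and 14 of these 23 genes (60.9%) had the motif in a window, beside 20.6% of all 27305 genes in that table. By windows the figures were 17 of 39 (43.6%) and 6143 of 35116 (17.5%). The 14 genes went in either direction between genotypes. CDS1, DSP, JUP, MUC1, OCLN, RAB17 and SPINT1 were lower in targeted droplets. CLDN7, ELF3 and TJP3 were higher in targeted spheroids in collagen. TJP1 and the repressor gene ZEB1 did not pass between genotypes, and CRB3 and RAB25 were not tested. The Grainyhead motif AACCGGTT was in none of the members' windows and in 0.117% of all. Of the 4 genes lower in all 3 conditions, DSP and OCLN had an entry, while CDH11 and ESRP2 had none, nor had CDH1. DSP had E-boxes starting 178 and 85 bases before its start, and OCLN had 1 in each of its 2 windows, 33 and 133 bases before the respective start. The second DSP site and both OCLN sites lie past the start of the first GENCODE 29 exon in their window. Whether they lie before the end of that exon was not checked. The stretch of the DSP window upstream of its annotated first exon and the other 3 sites are shown 5′ to 3′ on the plus strand, with the E-box in capitals, to let the matches be read in their context.
DSP, chr6:7541421-7541574: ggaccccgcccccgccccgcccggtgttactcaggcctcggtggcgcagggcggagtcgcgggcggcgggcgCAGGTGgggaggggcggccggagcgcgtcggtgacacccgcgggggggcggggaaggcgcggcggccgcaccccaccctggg
DSP, chr6:7541574-7541603: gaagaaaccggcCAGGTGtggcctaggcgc
OCLN, chr5:69492502-69492531: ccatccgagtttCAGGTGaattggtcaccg
OCLN, chr5:69492645-69492674: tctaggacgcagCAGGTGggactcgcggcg
A match describes the letters only.

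JUP encodes plakoglobin, shared by desmosomes and adherens junctions. It was 203.3, 181.0 and 171.9 CPM in control and 142.0, 155.2 and 134.7 CPM in targeted droplets, a difference of -0.36 ± 0.112 (adjusted p = 0.0357). In collagen JUP was 108.1, 80.7 and 83.4 CPM in control and 113.3, 107.5 and 105.1 CPM in targeted spheroids at 24 h, and 108.7, 109.3 and 83.8 CPM and 113.5, 120.2 and 105.5 CPM at 48 h, with overlapping groups. The 24 h difference of JUP did not pass (adjusted p = 0.102). It passed as higher in targeted spheroids with the replicate block (0.0206), no filter (0.00059), DESeq2 (0.05 after rounding) and without control 24 h replicate 1 (0.40, adjusted p = 0.00529). PKP3, which encodes plakophilin 3, was 27.9, 28.5 and 24.3 CPM in control and 21.3, 22.4 and 20.5 CPM in targeted droplets (-0.33 ± 0.0883, adjusted p = 0.0113). Its collagen values were 19.0, 20.6 and 17 CPM against 20.7, 17.9 and 15.9 CPM at 24 h and 17.6, 19.3 and 17.7 CPM against 18.7, 19.2 and 18.9 CPM at 48 h, also overlapping. The droplet call of JUP was lost without control replicate 1 or 2 or targeted replicate 1 or 3 (0.07 to 0.14), and that of PKP3 without control replicate 2 or targeted replicate 3 (0.0673 and 0.0585).

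RAB17 and MUC1, a trafficking and a surface gene, were among the members with the widest differences in droplets. MUC1 encodes a transmembrane mucin of the apical surface. It was 50.2, 43.7 and 31.4 CPM in control droplets and 13.5, 13.4 and 14.1 CPM in targeted droplets, 14.4, 10.2 and 9.42 CPM against 10.8, 8.47 and 7.10 CPM at 24 h and 10.0, 10.2 and 6.78 CPM against 9.14, 12.1 and 6.64 CPM at 48 h. Control droplets stood above all 15 other libraries, 3.05-fold above targeted droplets (log2 fold change -1.61 ± 0.225, adjusted p = 0.000207), and the genotypes overlapped in collagen.

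RAB17, a small GTPase of apical recycling in polarised epithelia, showed the same shape with more spread. It was 20.3, 18.7 and 6.47 CPM in control and 4.04, 4.62 and 1.54 CPM in targeted droplets, 3.17, 3.28 and 2.00 CPM against 4.23, 3.27 and 3.10 CPM at 24 h and 2.51, 3.38 and 1.55 CPM against 3.87, 3.29 and 3.47 CPM at 48 h. Replicate 3 was the low library of both droplet groups, and all control droplets were still above all targeted droplets. The difference was -2.16 ± 0.431 (adjusted p = 0.00357). It passed whichever library was left out, but not when only the 6 droplet libraries were fitted (-2.15, adjusted p = 0.109).

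LLGL2 and CDS1 were lower in targeted droplets too. LLGL2, a basolateral polarity protein, was 12.8, 12.7 and 9.03 CPM in control and 6.66, 8.44 and 8.02 CPM in targeted droplets (-0.57 ± 0.14, adjusted p = 0.00599), 5.47, 4.93 and 5.43 CPM against 4.41, 4.96 and 4.67 CPM at 24 h and 5.44, 4.93 and 3.80 CPM against 5.51, 4.46 and 4.36 CPM at 48 h. CDS1, an enzyme that makes CDP-diacylglycerol for phosphoinositide synthesis, was 1.92, 2.96 and 1.54 CPM in control and 0.951, 0.875 and 0.922 CPM in targeted droplets (-1.23 ± 0.29, adjusted p = 0.00452), 2.75, 1.92 and 3.16 CPM against 2.00, 2.66 and 2.73 CPM at 24 h and 2.78, 3.42 and 2.59 CPM against 1.25, 2.49 and 2.63 CPM at 48 h. For both genes the droplet groups did not overlap and the collagen groups did. The CDS1 call was lost without control replicate 2 (-0.91, adjusted p = 0.0588).

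The matriptase inhibitors SPINT1 and SPINT2 were lower in targeted droplets. Matriptase, encoded by ST14, is a membrane serine protease of epithelia that activates hepatocyte growth factor, and SPINT1 (HAI-1) and SPINT2 (HAI-2) are its Kunitz-type inhibitors. SPINT1 was 25.8, 23.6 and 22.5 CPM in control and 11.6, 13.3 and 12.6 CPM in targeted droplets, 27.9, 16.9 and 18.4 CPM against 14.8, 13.4 and 13.2 CPM at 24 h and 17.7, 17.3 and 10.6 CPM against 11.4, 10.9 and 12.3 CPM at 48 h. The genotypes were apart in droplets (-0.93 ± 0.181, adjusted p = 0.00191) and at 24 h (-0.61 ± 0.182, adjusted p = 0.0206) and overlapped at 48 h. The 48 h difference (adjusted p = 0.132) passed with no filter (-0.42, adjusted p = 0.00053) and without control 48 h replicate 3 (-0.60, adjusted p = 0.0107). The 24 h difference leaned on control replicate 1, without which it was -0.36 (adjusted p = 0.0702), and it was also lost without targeted replicate 2 or 3 (0.0669 and 0.0644).

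SPINT2 was the second highest member per length. Its CPM values were 631.6, 612.3 and 601.0 in control and 505.3, 513.5 and 527.6 in targeted droplets (-0.25 ± 0.0622, adjusted p = 0.00593), 425.2, 436.5 and 438.2 against 466.0, 431.4 and 415.5 at 24 h and 412.6, 423.1 and 395.0 against 473.9, 386.2 and 394.0 at 48 h. Only the droplet groups were apart. ST14 itself was low, at 0.376 to 2.10 CPM over the 18 libraries, and did not pass between genotypes.

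Among the epithelial regulators, ESRP2 had the largest genotype difference that held in every condition. ESRP2 (ENSG00000103067, chr16:68229111-68238102, minus strand) encodes a splicing factor that promotes epithelial isoforms of genes such as FGFR2 and CD44. It was 2.66, 1.93 and 1.47 CPM in control and 0.515, 0.525 and 0.341 CPM in targeted droplets, 2.38, 3.68 and 3.41 CPM against 2.09, 1.54 and 1.49 CPM at 24 h and 3.41, 3.84 and 3.24 CPM against 1.48, 1.22 and 1.44 CPM at 48 h. Each targeted library was below each control library of its condition, and ESRP2 was 4.33-fold higher in control droplets, 1.86-fold at 24 h and 2.52-fold at 48 h. The log2 fold changes were -2.11 ± 0.274 (adjusted p = 8.37e-06), -0.89 ± 0.224 (0.00439) and -1.33 ± 0.231 (0.000197), kept whichever library was left out. ESRP2 shares 149 exonic bases with NFATC3 on the opposite strand, whose level of 37.3 to 53.4 CPM is far above that of ESRP2. NFATC3 itself differed by -0.01 between genotypes in droplets (adjusted p = 0.923), by -0.16 at 24 h (0.0487) and by -0.18 at 48 h (0.0277), and it rose in collagen by 0.34 and 0.38 in control and by 0.19 and 0.20 in targeted spheroids. Whether reads were counted by strand is not stated, so reads of the shared bases cannot be assigned.

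The other regulators were ELF3, or not measurable. ELF3, an ETS-family factor of epithelia, was 7.95, 7.39 and 7.86 CPM in control and 6.94, 6.30 and 6.86 CPM in targeted droplets, 4.05, 2.11 and 2.58 CPM against 5.32, 4.04 and 3.47 CPM at 24 h and 3.76, 2.92 and 2.46 CPM against 5.08, 4.56 and 3.82 CPM at 48 h. It was higher in targeted spheroids by 0.56 ± 0.201 at 24 h (adjusted p = 0.0398) and by 0.56 ± 0.202 at 48 h (adjusted p = 0.0418), with overlap at 24 h. Each call was lost in 4 of 6 omissions, those of control replicates 2 and 3 and targeted replicates 1 and 2 at both times (adjusted p 0.0684 to 0.215 at 24 h, then 0.095 to 0.176 at 48 h). The 24 h difference was 0.85 without control replicate 1 (adjusted p = 0.0022), and its call was lost with only the groups compared in the fit (0.0977). ELF3 overlaps ELF3-AS1 on the opposite strand, which ranged from 0.89 to 2.49 CPM and was higher in targeted spheroids at 24 h by 0.66 (adjusted p = 0.0462). GRHL2, OVOL1 and ESRP1 were at or near 0 in every library, GRHL2 with no read in 9 of 18 libraries and OVOL1 in 14.

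The mesenchymal factors did not differ between genotypes in one direction. VIM encodes vimentin, the intermediate filament of mesenchymal cells. It was 2046.9, 1929.7 and 2195.1 CPM in control and 2478.6, 2242.5 and 2678.4 CPM in targeted droplets, 3119.6, 3251.1 and 3306.5 CPM against 3632.8, 3587.9 and 3584.5 CPM at 24 h and 3419.1, 3291.3 and 3460.6 CPM against 3834.5, 3830.7 and 3546.4 CPM at 48 h. Targeted libraries were the upper 3 in each condition, and the difference passed in droplets (0.26 ± 0.0603, adjusted p = 0.00369) but not at 24 h (0.16 ± 0.0602, adjusted p = 0.0507) or 48 h (0.14 ± 0.0602, adjusted p = 0.084). The 24 h difference passed with DESeq2 (adjusted p = 0.026), RLE factors (0.0462), library size alone (0.00757), no filter (0.0299), the replicate block (0.0354) and only the 2 groups fitted (0.0165). The 48 h difference passed with library size alone (0.19, adjusted p = 0.0142).

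ZEB1 and ZEB2 are zinc-finger repressors of epithelial genes. ZEB1 was 124.0, 126.0 and 132.9 CPM in control and 138.1, 129.2 and 141.6 CPM in targeted droplets, 121.2, 118.7 and 119.5 CPM against 127.1, 129.1 and 122.4 CPM at 24 h and 102.9 to 123.3 CPM over the 6 libraries at 48 h, where the genotypes overlapped, and did not pass between genotypes. At 24 h every targeted ZEB1 library was above every control library, and in droplets the genotypes overlapped. ZEB2 was 17.6, 17.4 and 21.7 CPM in control and 22.7, 23.6 and 25.4 CPM in targeted droplets, 22.2, 18.4 and 18 CPM against 22.9, 20.2 and 20.7 CPM at 24 h and 16.8, 16 and 18 CPM against 19.5, 22.8 and 22.3 CPM at 48 h. ZEB2 was higher in targeted spheroids in droplets (0.34 ± 0.0953, adjusted p = 0.0161) and at 48 h (0.34 ± 0.0986, adjusted p = 0.0118), the 2 conditions in which its groups did not overlap. The droplet call was lost without control replicate 1 or 2 or targeted replicate 3 (0.0791 to 0.109) and the 48 h call without control or targeted replicate 2 (0.0603 and 0.0608).

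SNAI1 and SNAI2 encode the repressors Snail and Slug. SNAI1 was 2.52, 1.96 and 2.45 CPM in control and 1.82, 1.23 and 1.43 CPM in targeted droplets, 2.67, 2.07 and 2.3 CPM against 1.96, 1.69 and 2.11 CPM at 24 h and 0.822, 0.752 and 1.04 CPM against 1.05, 0.845 and 1.19 CPM at 48 h. SNAI2 was 20.4, 20.7 and 16.8 CPM in control and 15.8, 13.6 and 15 CPM in targeted droplets, 26.4, 30.6 and 31.0 CPM against 29.9, 27.7 and 31.1 CPM at 24 h and 35, 35.7 and 37.0 CPM against 29, 32.4 and 38.1 CPM at 48 h. Both were lower in targeted droplets without overlap, SNAI1 by -0.63 ± 0.207 (adjusted p = 0.0389) and SNAI2 by -0.38 ± 0.1 (0.00933), and both overlapped in collagen. The SNAI1 call was lost without control replicate 1 or 3 or targeted replicate 2 or 3 (0.0978 to 0.153) and with DESeq2 (0.0648), and that of SNAI2 without control or targeted replicate 2 (0.0642 and 0.0535). PRRX1, a homeobox factor of mesenchyme, ranged from 0.793 to 9.58 CPM and did not pass between genotypes in the fit to all libraries (-0.64 ± 0.253 in droplets, adjusted p = 0.0899), with overlap in droplets. The PRRX1 droplet difference passed with no filter on low counts (adjusted p = 0.00502) and with the replicate number as a block (-0.65, adjusted p = 0.026). It also passed without control droplet replicate 3 (-0.85, adjusted p = 0.0237) and without targeted droplet replicate 2 (-0.90, adjusted p = 0.0306). TWIST1 had no read in any of the 18 libraries.

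**Figure D3:**
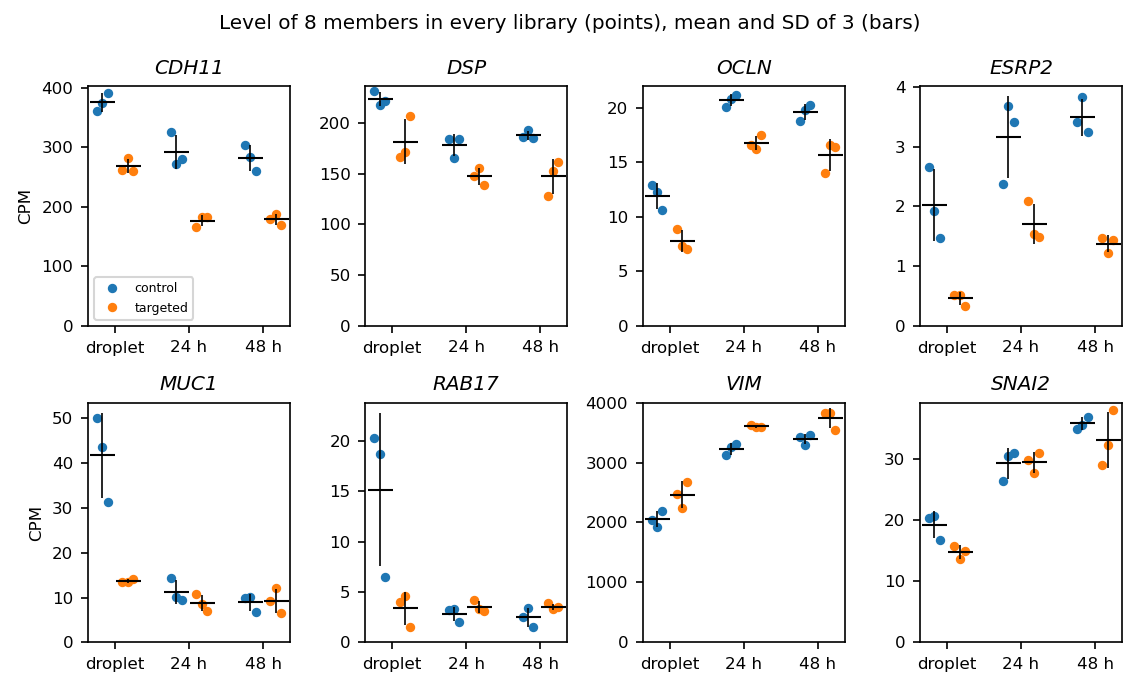
CPM (y axis, from 0) of 8 members in every library (points, blue control and orange targeted) in droplets, at 24 h and at 48 h, with mean and SD of 3 as bars. CDH11, DSP, OCLN and ESRP2 are lower in targeted libraries in each condition, MUC1 and RAB17 are high in control droplets only, and VIM and SNAI2 are higher in collagen than in droplets in both genotypes.

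Most tested members differed between collagen and droplet spheroids in both genotypes, in comparisons where many of all genes differed too. Embedding, digestion and longer culture cannot be told apart in them. In control spheroids 6 tested members rose and 16 fell by 24 h, where 27.8% of all genes rose and 28.7% fell, and 7 rose and 18 fell by 48 h, where the background was 27.7% and 27.5%. In targeted spheroids 8 rose and 13 fell by 24 h, against 25.5% and 25.7% of all genes, and 7 rose and 12 fell by 48 h, against 25.8% and 23.6%. The counts of rising members were near or below the background share, and those of falling members were above it. The median over the members was -0.361 and -0.564 in control and 0.017 and -0.155 in targeted spheroids at 24 h and 48 h. Both times are compared with the same droplet libraries, and the genotype differences in droplets use them as well, so these counts are not independent of one another.

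The genes that rose in both genotypes at both times were VIM, SNAI2, CDH2, CLDN7, OCLN and ESRP2, which are 3 mesenchymal and 3 epithelial members. The share of all genes that rose in each of these comparisons was not computed. VIM rose by 0.65 ± 0.0605 and 0.72 ± 0.0605 in control spheroids at 24 h and 48 h and by 0.55 ± 0.0604 and 0.60 ± 0.0604 in targeted spheroids, with adjusted p of at most 1.49e-07. SNAI2 rose by 0.61 ± 0.0955 and 0.90 ± 0.0951 in control and by 1.00 ± 0.0977 and 1.16 ± 0.0976 in targeted spheroids. OCLN rose by 0.79 ± 0.0911 and 0.71 ± 0.092 in control and by 1.11 ± 0.0963 and 1.01 ± 0.0974 in targeted spheroids. The occludin gene therefore went up alongside the gene for vimentin. CLDN7 rose by 0.67 ± 0.0786 and 0.85 ± 0.0786 in control and by 0.76 ± 0.0777 and 0.79 ± 0.0779 in targeted spheroids. All calls of these 4 genes were kept whichever library was left out.

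ESRP2 rose by 0.66 ± 0.219 and 0.80 ± 0.219 in control and by 1.88 ± 0.279 and 1.58 ± 0.288 in targeted spheroids. Its control rise at 24 h was lost without control droplet replicate 3 or control 24 h replicate 2 or 3 (adjusted p from 0.0516 to 0.0896). CDH2 rose by 1.55 ± 0.413 and 1.15 ± 0.43 in control and by 1.90 ± 0.534 and 1.56 ± 0.56 in targeted spheroids, from levels under 0.4 CPM in droplets. The CDH2 calls at 48 h were lost without control droplet replicate 3 or control 48 h replicate 3 (0.0972 and 0.206), and without targeted droplet replicate 1 or 2 or targeted 48 h replicate 2 (0.0722 to 0.114). Without targeted droplet replicate 3, the highest of its group, the targeted CDH2 rise was 2.79 at 24 h (adjusted p = 0.00148) and 2.46 at 48 h (adjusted p = 0.00577). CDS1 passed in targeted spheroids, where it rose by 1.43 ± 0.288 and 1.19 ± 0.295, and the difference between genotypes in that rise did not pass. VIM overlaps VIM-AS1 on the opposite strand, at 7.98 to 21.4 CPM, which rose at 24 h by 1.00 in control and by 1.19 in targeted spheroids.

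Genes that fell in both genotypes at both times came from both classes. They were CDH3, CLDN3, EPCAM, ELF3, ST14, SPINT2, LLGL2, DSP and JUP among epithelial members and CDH11 and PRRX1 among mesenchymal ones. Since 23 of the 31 tested members were epithelial, this mix says little about either class. The share of all genes that fell in all these comparisons was not computed. PRRX1 fell furthest of the mesenchymal genes. It was 9.58, 8.24 and 5.42 CPM in control and 4.72, 6.51 and 3.59 CPM in targeted droplets and between 0.793 and 2.54 CPM in all 12 collagen libraries, with log2 fold changes at 24 h and 48 h of -1.90 ± 0.275 and -2.48 ± 0.293 in control and -1.31 ± 0.284 and -1.67 ± 0.296 in targeted spheroids. No collagen library reached a droplet library.

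Several low genes in that group fell less firmly in targeted spheroids. The CDH3 values were -1.89 ± 0.35 and -2.20 ± 0.37 in control and -0.84 ± 0.305 and -2.26 ± 0.354 in targeted spheroids, and the targeted call at 24 h was lost without targeted droplet replicate 2 or targeted 24 h replicate 2 or 3 (adjusted p 0.0648 to 0.113). For CLDN3 they were -2.44 ± 0.408 and -1.12 ± 0.36 in control and -1.58 ± 0.439 and -1.14 ± 0.422 in targeted spheroids. Its 48 h call was lost without control droplet replicate 2 in control (0.0798) and without targeted droplet replicate 2 or 3 or targeted 48 h replicate 1 or 3 in targeted spheroids (0.0736 to 0.0993). The matriptase gene ST14 changed by -1.20 ± 0.282 and -1.82 ± 0.303 in control and by -0.73 ± 0.295 and -0.87 ± 0.302 in targeted spheroids. Without targeted droplet replicate 2 or targeted 24 h replicate 2 or 3 the ST14 call at 24 h was lost (0.0879 to 0.238), and without the same droplet library or targeted 48 h replicate 2 that at 48 h (0.134 and 0.109).

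Other members passed in part of the collagen comparisons. In control spheroids TJP3 (-1.15 ± 0.323 and -1.23 ± 0.331) and PKP3 (-0.51 ± 0.0893 and -0.56 ± 0.0903) fell at both times, CLDN4 fell at 24 h (-0.67 ± 0.117), and at 48 h CLDN1 (-0.72 ± 0.189), SPINT1 (-0.65 ± 0.18) and SNAI1 (-1.40 ± 0.224) fell and TJP1 rose (0.28 ± 0.0734). In targeted spheroids PKP3 fell at 24 h (-0.24 ± 0.091) and MARVELD2 rose (0.48 ± 0.187), calls lost in 4 of 6 and 5 of 6 omissions (0.0594 to 0.197 and 0.0554 to 0.119). MARVELD2 kept its call without targeted 24 h replicate 2, and PKP3 kept it without targeted droplet replicate 3 or targeted 24 h replicate 1. ZEB1 fell at 48 h in targeted spheroids (-0.25 ± 0.057), and by -0.16 without targeted 48 h replicate 1 (adjusted p = 0.0108).

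MUC1 and RAB17 fell in control spheroids. Their log2 fold changes at 24 h and 48 h were -1.89 ± 0.23 and -2.21 ± 0.238 for MUC1 and -2.44 ± 0.442 and -2.6 ± 0.454 for RAB17. In targeted spheroids MUC1 fell by 0.64 ± 0.249 at 24 h (adjusted p = 0.0458), a call lost in 5 of 6 omissions and kept without targeted 24 h replicate 1, and its change at 48 h did not pass (-0.55, adjusted p = 0.0834). RAB17 did not pass in targeted spheroids at either time. The values of JUP, which fell in both genotypes, were -1.03 ± 0.114 and -0.88 ± 0.114 in control and -0.41 ± 0.114 and -0.35 ± 0.114 in targeted spheroids. The values of ELF3, which fell in both genotypes, were -1.42 ± 0.192 and -1.34 ± 0.193 in control and -0.65 ± 0.186 and -0.57 ± 0.187 in targeted spheroids. The values of LLGL2, which fell in both genotypes, were -1.12 ± 0.145 and -1.28 ± 0.148 in control and -0.72 ± 0.151 and -0.69 ± 0.152 in targeted spheroids. Of these 3, the targeted calls at 48 h for JUP (without targeted droplet replicate 2 or targeted 48 h replicate 1 or 3, 0.0585 to 0.0746) and ELF3 (without targeted 48 h replicate 3, 0.0691) were lost on leaving out a library.

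Few members changed over the second day in collagen. Between 24 h and 48 h, CLDN4 and SNAI2 rose and SNAI1 fell in control spheroids, where 6.32% of all genes rose and 6.88% fell. CDH3 and SNAI1 fell in targeted spheroids, where the background was 2.07% and 1.73%. With library size alone as the scaling, the higher share of all calls between the 2 days was 44.2% in targeted spheroids (54.5% with TMM). SNAI1 changed by -1.43 ± 0.223 in control (adjusted p = 0.000163) and by -0.89 ± 0.226 in targeted spheroids (adjusted p = 0.0268), and all 6 libraries at 48 h, at 0.752 to 1.19 CPM, were below all 6 at 24 h, at 1.69 to 2.67 CPM. The control fall was kept in every omission, and the targeted one was lost without targeted 24 h replicate 1 or 3 or targeted 48 h replicate 1 or 2 (0.0694 to 0.101). DESeq2 gave no adjusted p for SNAI1 or CDH3 in that comparison, at log2 fold changes of -0.91 and -1.44. SNAI2, the other Snail-family gene, rose by 0.29 ± 0.0917 in control spheroids over the same day (adjusted p = 0.0391), a call lost in each of the 6 omissions (0.0509 to 0.151). The CLDN4 rise, 0.48 ± 0.118 (adjusted p = 0.0138), was lost in 3 of 6 omissions (control 24 h replicate 3, control 48 h replicates 1 and 2, 0.0563 to 0.063), and the CDH3 change of -1.42 ± 0.376 in targeted spheroids (adjusted p = 0.0351) in each omission but that of targeted 48 h replicate 2 (0.0533 to 0.182).

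**Figure D4:**
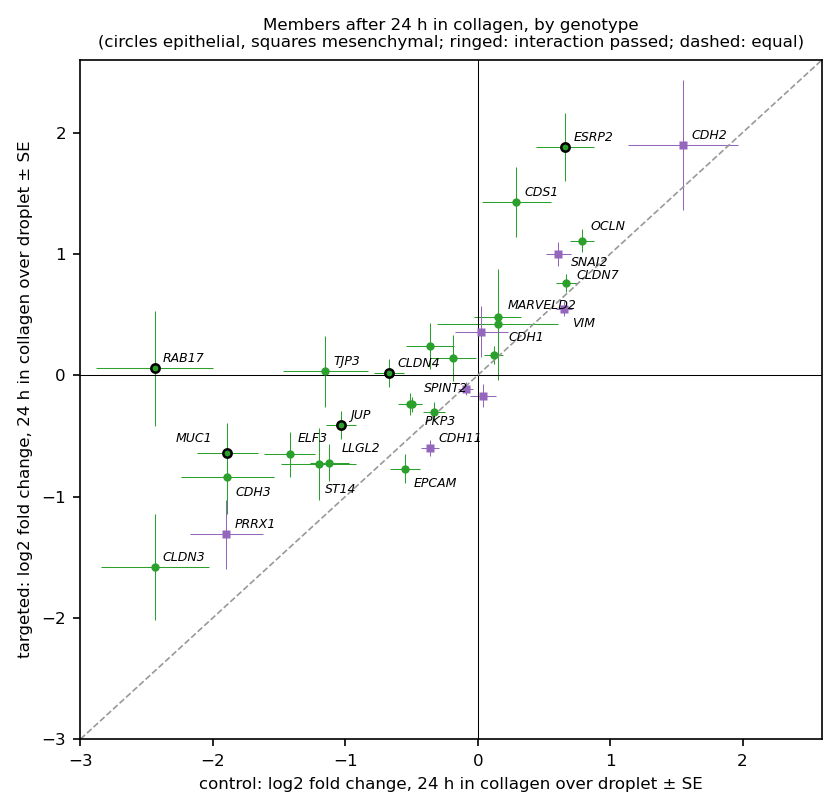
Log2 fold change of 24 h in collagen over droplets in control (x axis) and targeted spheroids (y axis) for the 31 tested members, with SE bars; the dashed line marks equal change and ringed points passed the test of the difference. RAB17, MUC1, JUP and CLDN4 lie above the line on the left with log2 fold changes of -2.44, -1.89, -1.03 and -0.67 in control spheroids, and ESRP2 lies above it on the right.

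Whether the genotype difference changed between droplets and collagen was tested as an interaction. At 24 h it passed for 5 members, all with a more positive difference in collagen than in droplets, where 3.32% of all genes passed in that direction and 4.09% in the other. At 48 h it passed for 3 members in the same direction, against 4% and 2.78% of all genes. The shares of members thus differed from those of all genes by few genes. With library size alone as the scaling, the positive share of all interaction calls was 59.0% at 24 h (44.8% with TMM) and 73.9% at 48 h (59.0% with TMM, 48.7% with DESeq2), and the members called were 6 and 5. The genes were CLDN4, ESRP2, MUC1, RAB17 and JUP at 24 h and CLDN1, MUC1 and RAB17 at 48 h. CLDN4, RAB17 and JUP had a negative genotype difference in droplets and a positive fitted one in collagen at 24 h that did not pass (0.31, 0.34 and 0.26). For ESRP2 the difference was -0.89 at 24 h against -2.11 in droplets, and for MUC1 -0.36 against -1.61. The interaction of MUC1 was 1.25 ± 0.339 at 24 h (adjusted p = 0.0416) and 1.65 ± 0.345 at 48 h (0.017), and that of RAB17 was 2.5 ± 0.65 (0.0363) and 2.67 ± 0.662 (0.0326). The interactions of CLDN1 and MUC1 at 48 h were kept whichever library was left out, and every other one was lost in at least 6 of 12 omissions.

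Control droplets stood out as the condition in which many epithelial members were highest. In CPM, all 3 control droplet libraries were above the 15 other libraries for 10 of the 31 tested members (CDH11, EPCAM, ELF3, MUC1, RAB17, SPINT2, LLGL2, DSP, JUP and PKP3), which held for 6.08% of all genes tested. They were below the 15 others for 2 members, CLDN7 and VIM, and for 3.68% of all genes. No test was made of these counts, and the members were chosen with earlier results of these data known.

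The genes that work beside the members are given by counts, to be read against the background of 7.7% of all genes higher and 9.7% lower in targeted droplets. In lists of this size a share near the background is at most about 2 genes, and nothing is read from such counts. Of 9 further lists with 168 genes found in the table, the other tight junction genes had 4 of 12 tested lower and 0 higher in targeted droplets, with CLDN2 lower by -0.77 ± 0.166 (adjusted p = 0.00435). In collagen CLDN2, a pore-forming claudin, was higher in targeted spheroids by 0.79 ± 0.212 at 24 h (0.0109). Other desmosome and hemidesmosome genes had 3 of 12 lower and 1 higher in droplets, and the higher one, the desmosomal cadherin DSC2, was also higher at 24 h and 48 h (0.76 ± 0.102, 0.87 ± 0.109 and 1.05 ± 0.111). In droplets DSC2 was thus higher where DSP, JUP and PKP3 were lower. Epithelial trafficking and surface genes had 5 of 17 lower and 2 higher in droplets, MAL2, a protein of apical transport, by -0.80 ± 0.0845. Other epithelial factors had 4 of 14 lower and 2 higher, SPDEF by -0.69 ± 0.0903 and TFAP2C by 0.35 ± 0.0595. Adherens junction partners had 1 of 13 lower and 4 higher in droplets, polarity genes 3 of 14 lower and 2 higher, and genes of the matriptase and hepatocyte growth factor system 1 of 5 lower and 0 higher.

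Mesenchymal genes outside the module had calls in both directions, as did all genes tested (13.7% higher and 15.7% lower at 24 h, and 14.4% and 15.1% at 48 h). Other mesenchymal transition factors had 2 of 13 higher and 3 lower in targeted droplets, 4 higher and 2 lower at 24 h and 3 higher and 3 lower at 48 h. Mesenchymal cytoskeletal and surface genes had 5 of 20 higher and 5 lower in droplets, 5 and 4 at 24 h and 6 and 5 at 48 h. Within that list FN1, which encodes fibronectin, was 4271.1 ± 329.0 CPM (SD, n = 3) in targeted and 2044.7 ± 426.0 CPM in control droplets, higher by 1.06 ± 0.128 (adjusted p = 3.52e-05). AXL, a receptor kinase tied to mesenchymal states, was lower in targeted spheroids by -0.68 ± 0.0595 at 24 h and by -0.76 ± 0.0596 at 48 h. SOX4, a transition factor, was higher in targeted spheroids by 0.91 ± 0.158 at 24 h and by 1.04 ± 0.159 at 48 h.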

How the data were processed

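RNA was measured in 18 libraries in 6 groups of 3, grouped by the genotype and treatment labels. Per the submitters' processing notes, cutadapt 2.3, STAR 2.7.8a and RSEM 1.3.3 were used on GRCh38, and the deposited table holds the authors' expected counts per gene, which were already whole and were rounded to whole numbers without change. Neither annotation release nor strand setting is stated. Of 62714 rows, 4 reporter rows with no read were left out, and 58274 genes were matched to GENCODE 29 for positions and lengths. The members and gene lists were chosen with earlier results of these data known.

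The test was edgeR's (4.0.16, under R 4.3.3) quasi-likelihood test with robust estimation. It used 17030 genes left by filterByExpr at a minimum count of 10, TMM factors, and 6 group means fitted together, leaving 12 residual degrees of freedom. The p-values were adjusted by Benjamini-Hochberg within each of 11 contrasts, with a threshold of 0.05. CPM values use the TMM factors. Intervals are at 95% (t quantile on 12 degrees of freedom), rest on the quasi-likelihood SE and include the spread between libraries, while floors cover counting error only. A count of 0 allows up to 3 counts.

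Members were described with every library when they passed in a genotype contrast with a mean of at least 1 CPM in a group, or were among CDH1, CDH2, EPCAM, VIM, ZEB1, ZEB2, SNAI1, SNAI2 and TWIST1. ZEB1 at 48 h is given by its range only. From other lists up to 4 genes a contrast could be named, the largest log2 fold changes that passed at 1 CPM or more, and not all are printed. Of the symbols on those lists 1, MPP5, was not matched. Alternatives were DESeq2 1.42.0, RLE factors, library size alone, no filter, only the groups compared, the replicate number as a block, each library left out in turn and, chosen after seeing the data, both droplet replicates 3 left out. On counts simulated for the droplet comparison (16802 genes tested), 83 of 100 changes of 1.5-fold and 99 of 100 of 2-fold were recovered, and 7 of 189 calls were false. Only well-counted genes were changed there, so the recovery does not cover low members such as CDH1 and CDH2. Far fewer genes were changed in the simulation than passed in the droplet data. Promoter sequences are from RefSeq.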

Additional observations from a re-analysis of the deposited data

Results flagged for a closer look

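The genotype difference changed between droplets and collagen for 6 members, by edgeR's test of the interaction over all 17030 genes, and the log2 values below are the difference in collagen minus that in droplets. All were positive. At 24 h they were 0.69 ± 0.165 for CLDN4 (adjusted p = 0.0226), 1.22 ± 0.357 for ESRP2 (0.0403), 1.25 ± 0.339 for MUC1 (0.0416), 2.5 ± 0.65 for RAB17 (0.0363) and 0.63 ± 0.16 for JUP (0.0296).

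At 48 h they were 1.18 ± 0.268 for CLDN1 (0.0148), 1.65 ± 0.345 for MUC1 (0.017) and 2.67 ± 0.662 for RAB17 (0.0326). CLDN1 passed as lower in targeted droplets and as higher in targeted spheroids at 48 h.

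Leaving out each of the 12 libraries in turn ended the 24 h call of ESRP2 in all but 2 cases (control droplet 3 and targeted 24 h 3), of MUC1 in all but 3 (control droplet 3, control 24 h 1 and targeted 24 h 3) and of RAB17 in all but 3 (control droplet 3, targeted droplet 2 and control 24 h 1). It ended that of JUP in 8 of 12 cases and that of CLDN4 in 6 of 12. The adjusted p in those cases ran from 0.0503 to 0.126 for ESRP2, 0.0709 to 0.114 for MUC1, 0.0558 to 0.102 for RAB17, 0.055 to 0.0877 for JUP and 0.0508 to 0.0647 for CLDN4. At 48 h RAB17 passed only without control droplet 3, targeted droplet 2 or control 48 h 2 (otherwise 0.0514 to 0.0903), and CLDN1 and MUC1 passed in all 12.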

How the results depend on the processing

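The 140 member values that passed over 11 comparisons gave 1840 refitted values with an adjusted p, none of which reversed, and 1628 kept their side of the threshold. RLE factors kept 140 of 140 calls, the replicate block 139, library size alone 136, DESeq2 133 of 138 (2 had no adjusted p and are not counted as lost), no filter on low counts 133 and a fit of only the groups compared 125. Leaving out 1 library kept 719 of 888, and leaving out both droplet replicates 3, chosen after seeing the data, kept 103 of 114.

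The number of members called moved by more than 1.5 times in some refits. Without the filter it was 5 between 48 h and 24 h in control spheroids (main 3), and 9 for each interaction (main 5 and 3). Between 48 h and 24 h in targeted spheroids it was 0 with edgeR on only the groups compared (main 2, with adjusted p of 0.124 for CDH3 and 0.0772 for SNAI1 in that fit, and 5 of 31 tested members at an unadjusted p under 0.05). DESeq2 called no member there, with 4 of 31 at an unadjusted p under 0.05, and gave neither gene an adjusted p. For the 48 h interaction it was 6 with DESeq2, 5 with library size alone and 9 with the replicate block.

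Leaving out each library in turn gave 11 to 20 members for the genotype difference in droplets (main 19, fewest without control replicate 2), 6 to 12 at 24 h (main 11, fewest without control replicate 3 or targeted replicate 2) and 6 to 11 at 48 h (main 10, fewest without targeted replicate 2). It gave 1 to 3 between 48 h and 24 h in control spheroids, 0 to 2 in targeted spheroids, 0 to 7 for the 24 h interaction and 2 to 9 for the 48 h interaction (9 without control droplet replicate 3). In these fits a group left with 2 libraries shares the spread of the others. The cause of these moves was not tested.

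Replicate numbers showed little pairing: over 45 pairs with the same number, the correlation of deviations from group means ran from -0.0701 to 0.137, and 7 of 18 libraries correlated best with their own number. The highest value, 0.137, was between replicates 3 of the droplet groups, and the labels do not say whether these were made together. Under the block the only lost call was ST14 in targeted spheroids at 24 h against droplets (adjusted p = 0.0505), and calls were gained: members called were 20 for the genotype difference in droplets (main 19), 14 at 24 h (main 11), 26 between 48 h and droplets in control (main 25) and 23 in targeted spheroids (main 19), and 7 for the 24 h interaction (main 5).

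Depth limits CDH1, CDH2 and the members without a test.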
